A study of Homo sapiens with 32 samples.

Results

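*FZR1*, *CDC20* and *FBXO5* were followed through a pooled CRISPR-knockout screen as 3 of 18638 targeted genes, with 12 of 74552 sgRNAs. *FZR1* and *CDC20* encode the coactivators of the anaphase-promoting complex (APC/C), and *FBXO5* encodes its inhibitor EMI1. The 3 genes were chosen by name, with their difference between the high and low populations already known from these data, so all comparisons among the sorted populations are given for them as descriptions without a test, and only the change since the day 0 control is tested. That change also takes in the high and low libraries, so its tests are not independent of the choice. The rows of the 3 genes were found through the Ensembl identifiers of the count table. *FZR1* (ENSG00000105325) lies on chromosome 19 of GRCh38 from 3506311 to 3538334 on the plus strand, *CDC20* (ENSG00000117399) on chromosome 1 from 43358981 to 43363203 on the plus strand, and *FBXO5* (ENSG00000112029) on chromosome 6 from 152970519 to 152983579 on the minus strand. All are protein-coding genes, and each was targeted by 4 sgRNAs, numbered here as in the count table.

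The APC/C is a ubiquitin ligase that drives cells out of mitosis by marking cyclins, securin and other mitotic proteins for destruction, and it needs a coactivator to recruit them. CDC20 activates it from early mitosis, when the mitotic checkpoint restrains CDC20 until chromosomes are attached, and is essential for anaphase. FZR1, also called CDH1, takes over at mitotic exit and keeps the complex active through G1, and cyclin-dependent kinases switch FZR1 off at the start of S phase. EMI1 holds the complex inactive through S and G2 phase, and is itself destroyed at mitotic entry through the SCF ubiquitin ligase after phosphorylation by PLK1.

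RKO, an established human colorectal cancer line with a wild-type genotype in the labels, had been given lentiviral transgenes for Kinprola_PKA and Cas9. Kinprola_PKA is a split-HaloTag recorder that becomes labeled by the fluorescent substrate CPY-CA while protein kinase A (PKA) is active, and its EGFP tag normalizes for its amount. The sorted cells carried both transgenes, had received the HD CRISPR sublibrary A by lentivirus and had been selected with puromycin. On day 6, CPY-CA was applied for 30 min, and the cells were sorted by CPY-CA/EGFP into a high (around 25%), a medium (around 50%, called basal in the labels) and a low population (around 25%), and the reads of each sgRNA in genomic DNA stood for the cells carrying it.

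There were 2 screens, labelled replicates 2 and 3, each with 1 library of high, medium, low and of a day 0 control (T0). The study's text does not describe the T0 libraries, which are known here by their titles alone, so how far those cells had gone through transduction and selection was not known. The 8 libraries held 23369720 to 31777138 reads, at medians of 260 to 356 reads per sgRNA. Reads were brought to a common library total, the mean of the 8 ("scaled reads"). After adding 1 read, log2 differences between populations of the same screen were computed for each sgRNA, and a gene's value is the mean of its 4 sgRNAs. All p-values rest on 2 screens. limma and edgeR draw each variance towards those of all other entries or sgRNAs, so SE and p do not measure that gene's own spread alone. Since PCR reads carry no molecular identifiers, intervals cover counting error only. The measurement is of sgRNA abundance, so in the screen neither protein loss nor cutting at the 3 genes was observed directly. Outside the screen, the study assayed editing and protein for individual sgRNAs against *FZR1*.

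All 4 sgRNAs against the G1 coactivator *FZR1* were scarce in the low population and abundant in the high population of both screens. In the screens labelled replicates 2 and 3, sgRNA 1 had 464 and 310 scaled reads at T0, 12.8 and 35.1 in low, 149 and 184 in medium and 570 and 613 in high. The sgRNA 2 had 165 and 172 at T0, 16.0 and 23.0 in low, 185 and 116 in medium and 299 and 234 in high. For each of these sgRNAs the medium libraries lay between low and high, and the high libraries lay above T0. The sgRNA 3 had 223 and 154 scaled reads at T0, 31.0 and 15.3 in low, 78.3 and 110 in medium and 339 and 239 in high. The most abundant, sgRNA 4, had 546 and 564 at T0, 57.7 and 42.7 in low, 347 and 422 in medium and 1218 and 1078 in high. The order low, medium, high held for all 4 sgRNAs in both screens, without overlap between low and medium or between medium and high of the same sgRNA.

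The mean log2 difference between high and low for *FZR1* was 4.15 (SD 0.25, n = 2 screens), or 17.7-fold, with 4.32 and 3.97 in the single screens. It ranked first of 18638 genes, which is the value that selected the gene. Over all genes the difference had an SD of 0.373 and 0.372 in the 2 screens. Single sgRNAs ranged from 3.41 to 5.37 in the screen labelled replicate 2 and from 3.29 to 4.63 in replicate 3. From the raw reads, sgRNA 1 was 44.5 times as abundant in high as in low in replicate 2 (exact Clopper-Pearson 95% interval 25.3 to 86.5, 654 against 12 reads) and 17.5 times in replicate 3 (12.2 to 25.8, 517 against 32 reads). The lowest ratio of an *FZR1* sgRNA was 10.1 (6.46 to 16.8), for sgRNA 2 in replicate 3, so that no sgRNA and no screen approached equal abundance.

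**Figure D1:**
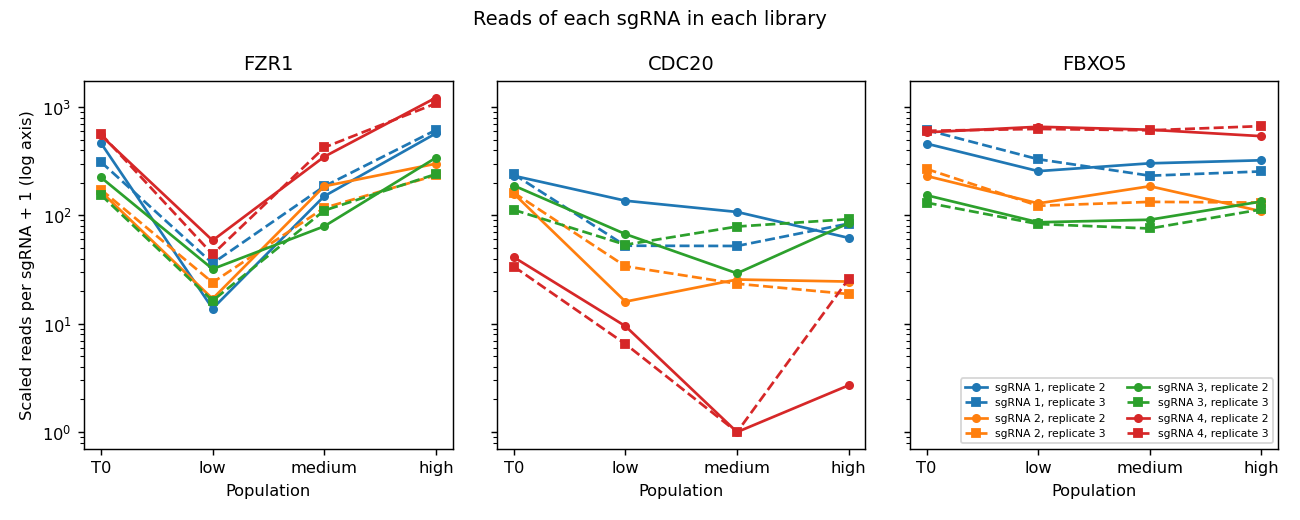
Scaled reads plus 1 on a log axis of each of the 4 sgRNAs (colors) against *FZR1*, *CDC20* and *FBXO5* in the T0, low, medium and high libraries of the screens labelled replicates 2 (solid lines, circles) and 3 (dashed lines, squares). Lines join libraries for reading only: *FZR1* dips in low and exceeds T0 in high, *CDC20* lies below T0 in every sorted library, and *FBXO5* sgRNA 4 stays near its T0 reads of 584 and 603.

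Measured from medium, *FZR1* moved on both sides. Low minus medium was −2.69 and −2.67, a mean log2 of −2.68 (SD 0.015, n = 2 screens), the lowest of all genes. High minus medium was 1.63 and 1.30, a mean of 1.46 (SD 0.24), which ranked 63 of 18638. These values share libraries with the difference that selected the gene and are not tested.

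The distance from medium was larger on the low side. Low minus medium and high minus medium were summed (here, the asymmetry), which gives 0 when both sides lie equally far from medium. The sum was −1.06 and −1.37 for *FZR1*, a mean log2 of −1.22 (SD 0.22, n = 2 screens), and lay between −1.44 and −0.997 with each library left out. It is formed from the same high and low libraries that selected the gene, and low held only 110 and 106 raw reads of *FZR1* against 2783 and 1826 in high, so it is not independent of the selection and no test of it is used for the 3 genes. Over all genes limma called 7 in either direction, or 0.0376% of 18638, and 1279 had an unadjusted p under 0.05. Single *FZR1* sgRNAs had means of −1.08, −2.02, −0.43 and −1.34 for sgRNAs 1 to 4, and sgRNA 3 had opposite signs in the screens, 0.79 and −1.65. edgeR called 0.0941% of 74415 sgRNAs for asymmetry, sgRNA 4 of *FZR1* among them, from which nothing is read.

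Weighted by gate size, the reads estimate where the cells carrying the sgRNAs of a gene (its carriers) lay. For *FZR1*, 59.7% and 54.8% of carriers lay in the high gate, 37.4% and 42.2% in medium and 2.89% and 2.94% in low. For the 278 sgRNAs without a target, 23.8% and 24.0% lay in high, 50.8% and 50.4% in medium and 25.4% and 25.6% in low. The median gene had 24.9% in the high gate in both screens. These shares assume gates of exactly 25%, 50% and 25%, where the study's methods give approximate sizes.

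The sgRNAs against the mitotic coactivator *CDC20* were rare in all sorted populations, and the difference between high and low had opposite signs in the screens. In replicates 2 and 3, sgRNA 1 had 231 and 238 scaled reads at T0, 136 and 51.5 in low, 107 and 51.2 in medium and 61.0 and 83.0 in high. The sgRNA 2 had 158 and 161 at T0, 15.0 and 32.9 in low, 24.6 and 22.4 in medium and 23.5 and 17.8 in high. No order of the sorted populations was shared by the 2 screens for either sgRNA, while both lay below T0 throughout. The sgRNA 3 had 187 and 112 scaled reads at T0, 66.2 and 52.6 in low, 28.2 and 77.9 in medium and 83.7 and 91.3 in high. The sgRNA 4 was the rarest, with 40.1 and 32.7 at T0, 8.5 and 5.5 in low, 0 in both medium libraries and 1.7 and 24.9 in high. A count of 0 in medium allows up to 2.7 and 3.2 scaled reads there (3 reads in each library).

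High minus low for *CDC20* was −0.50 in replicate 2 and 0.65 in replicate 3, a mean log2 of 0.08 (SD 0.81, n = 2 screens). Summed over its 4 sgRNAs, the ratio of high to low was 0.754 in replicate 2 (95% interval 0.618 to 0.921, 195 against 211 reads) and 1.52 in replicate 3 (1.21 to 1.92, 183 against 130 reads), and these intervals, which leave out the spread between screens, do not overlap. For sgRNA 1 alone the ratios were 0.450 (0.331 to 0.607) and 1.61 (1.10 to 2.38). Only sgRNA 3 was above 1 in both screens, at 1.26 (0.909 to 1.77) and 1.74 (1.19 to 2.54).

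Both outer populations lay above medium for *CDC20* on the mean over sgRNAs. Low minus medium was 1.03 and 0.67, and high minus medium was 0.53 and 1.32. These rest on sgRNA 4, which had no read in medium. Without it, a comparison chosen after seeing its reads, low minus medium was 0.29 and −0.0048 and high minus medium was 0.23 and 0.20. The asymmetry was 1.56 and 1.99, a mean log2 of 1.78 (SD 0.30, n = 2 screens). It was 0.35 without sgRNA 4, and 0.56 on reads summed over the sgRNAs, where sgRNA 4 weighs little. The *CDC20* sgRNAs held at most 136 scaled reads in a sorted library. The estimated gate shares were 23.8% and 32.8% in high, 44.6% and 45.7% in medium and 31.6% and 21.5% in low, with no screen near the shares of *FZR1*.

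The sgRNAs against the inhibitor *FBXO5* were spread over the 3 gates at shares close to those of sgRNAs without a target. In replicates 2 and 3, sgRNA 1 had 458 and 613 scaled reads at T0, 255 and 329 in low, 302 and 232 in medium and 322 and 254 in high. The sgRNA 2 had 230 and 267 at T0, 128 and 122 in low, 185 and 132 in medium and 108 and 130 in high. The sorted libraries of both sgRNAs lay below T0, in no order that both screens shared. The sgRNA 3 had 152 and 130 scaled reads at T0, 85.4 and 82.2 in low, 90.2 and 74.7 in medium and 133 and 113 in high. It was the 1 *FBXO5* sgRNA with more reads in high than in low in both screens, at ratios of 1.56 (1.18 to 2.07) and 1.37 (1.00 to 1.88). The sgRNA 4 had 584 and 603 at T0, 657 and 627 in low, 617 and 609 in medium and 538 and 666 in high. Its sorted libraries lay on both sides of T0 in replicate 2 and above T0 in replicate 3.

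High minus low for *FBXO5* was 0.11 and 0.07, a mean log2 of 0.09 (SD 0.03, n = 2 screens), and it ranked 5071 of 18638. The closeness of the 2 values was not shared by single sgRNAs, which ranged from −0.29 to 0.64 in replicate 2 and from −0.37 to 0.45 in replicate 3. On summed reads the ratio of high to low was 0.978 (95% interval 0.901 to 1.06, 1263 against 1054 reads) and 1.00 (0.918 to 1.10, 981 against 1058 reads). Low minus medium was −0.19 and 0.14, and high minus medium was −0.08 and 0.21. The asymmetry was −0.27 and 0.35, a mean of 0.04 (SD 0.43). The estimated gate shares were 23.9% and 26.3% in high, 51.7% and 47.4% in medium and 24.4% and 26.3% in low.

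**Figure D2:**
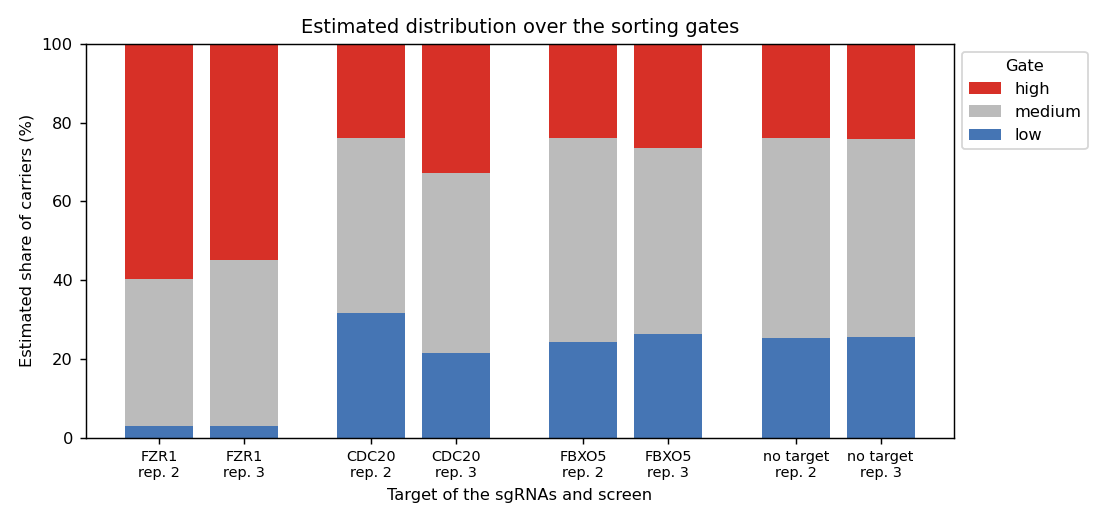
Estimated share of the cells carrying the sgRNAs (percent, stacked to 100) in the low (blue), medium (gray) and high (red) gates, for *FZR1*, *CDC20*, *FBXO5* and the sgRNAs without a target, each in the screens labelled replicates 2 and 3. *FZR1* has 59.7% and 54.8% in the high gate, against 23.8% and 24.0% for sgRNAs without a target, and the *CDC20* shares in low, 31.6% and 21.5%, are the most different between the screens among the shares plotted.

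For the change since T0, the day 6 pool of each sgRNA was rebuilt from its scaled reads. The weights were 0.25 for high, 0.5 for medium and 0.25 for low. This pool takes in the high and low libraries by which the genes were chosen, and it assumes the approximate gate sizes. For *FZR1*, an estimated 59.7% and 54.8% of it came from high, so its test is not independent of the selection. All 3 genes were lower in the rebuilt pool than at T0 in both screens. *CDC20* had the lowest values, with log2 differences of −2.33 and −1.81, a mean of −2.07 (SD 0.37, moderated SE 0.11, n = 2 screens, adjusted p = 2.49e-14, limma). *FBXO5* had −0.45 and −0.70, a mean of −0.57 (SE 0.10, adjusted p = 8.56e-05, limma). *FZR1* had −0.48 and −0.34, a mean of −0.41 (SE 0.10, adjusted p = 0.0038, limma). limma called 1556 genes lower, or 8.35% of 18638, and 473 higher, or 2.54%, and *CDC20* ranked 171 from the lowest, *FBXO5* 949 and *FZR1* 1220.

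The fall depended on how the pool was formed for *FZR1* and on 1 library for *FBXO5*. For *FZR1*, the weighted mean of the log2 values gave −1.03 (adjusted p = 1.44e-05), and medium alone, which uses neither the high nor the low library, gave −0.73 (adjusted p = 0.00364, both limma). Neither is free of the sorting for *FZR1*. The weighted mean of log2 values includes its depleted low library. Medium held an estimated 37.4% and 42.2% of its carriers, against 50.8% and 50.4% for sgRNAs without a target. Medium alone gave −2.80 for *CDC20* (adjusted p = 4.38e-07) and −0.60 for *FBXO5* (adjusted p = 0.0153, both limma). Without the T0 library of replicate 3, and with the pool as a weighted mean of log2 values, *FBXO5* no longer passed (−0.49, limma on the other 7 libraries). Centring on the sgRNAs without a target moved the median of all genes by −0.22, gave −0.59 for *FZR1*, −2.28 for *CDC20* and −0.79 for *FBXO5*, and turned the calls to 37 higher and 5473 lower. The scaled reads of the pool were 72.7% and 82.3% of those at T0 for *FZR1*, 29.0% and 30.5% for *CDC20* and 80.9% and 68.5% for *FBXO5*, against 116% and 119% for the sgRNAs without a target.

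The sgRNAs of a gene did not fall alike. For *FBXO5*, sgRNAs 1 to 3 stood at 42.6% to 66.2% of T0 in the rebuilt pool, while sgRNA 4 stood at 104% in both screens. For *CDC20*, all 4 were below T0, from 6.41% for sgRNA 4 in replicate 2 to 67.2% for sgRNA 3 in replicate 3. For *FZR1*, they ranged from 47.5% for sgRNA 1 to 104% for sgRNA 2, both in replicate 2.

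Medium against T0 was tested for each sgRNA by edgeR's quasi-likelihood test. It takes in shifts between gates as well as change since T0, so a call is not by itself a loss from the pool. In the rebuilt pool *FZR1* sgRNA 4, for example, stood at 90.2% and 87.2% of T0. Of the 12 sgRNAs, 8 were lower at an adjusted p under 0.05, where 5.17% of 74415 sgRNAs were lower. They were all 4 of *CDC20*, with log2 differences of −1.65 (adjusted p = 0.00018), −2.76 (adjusted p = 1.2e-05) and −1.54 (adjusted p = 0.00699) for sgRNAs 1 to 3, and an adjusted p of 0.00232 for sgRNA 4. They also included *FBXO5* sgRNA 1 (−1.01, adjusted p = 4.93e-05) and *FZR1* sgRNAs 1 (−1.24, adjusted p = 8.71e-06), 3 (−0.98, adjusted p = 0.0284) and 4 (−0.54, adjusted p = 0.0161, all edgeR). The other 4 had −0.66, −0.79 and 0.04 for *FBXO5* sgRNAs 2 to 4 and −0.19 for *FZR1* sgRNA 2. Without the medium or the T0 library of 1 screen the count was 3 to 5 of 12. With DESeq2 it was 7 of 12, as *FZR1* sgRNA 1 was not called (−1.26, adjusted p = 0.142).

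**Figure D3:**
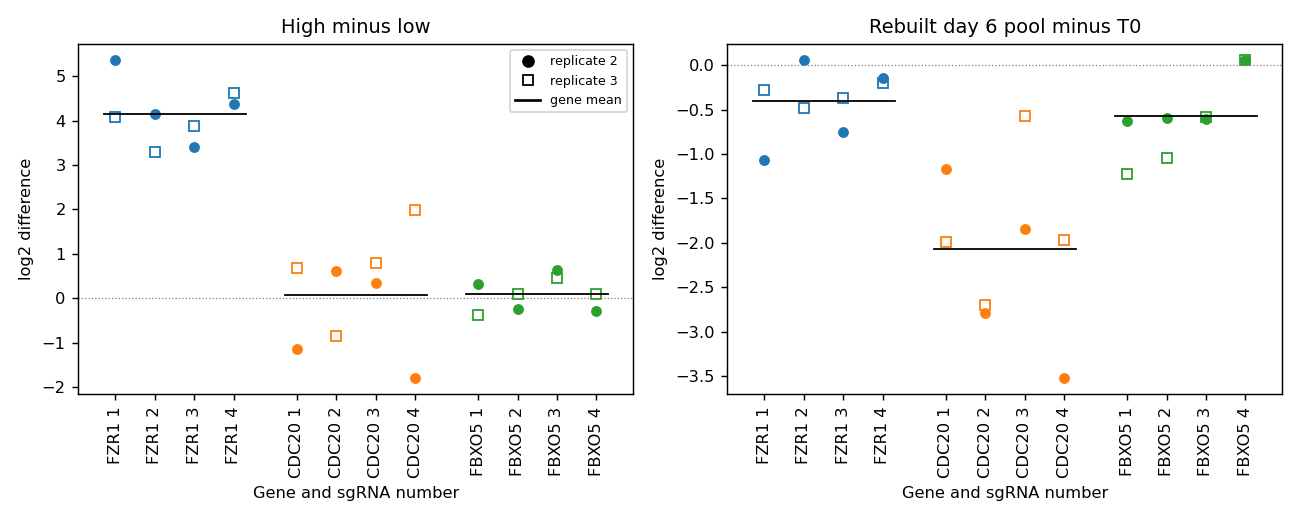
Log2 difference of each sgRNA between high and low (left) and between the rebuilt day 6 pool and T0 (right), in the screens labelled replicates 2 (filled circles) and 3 (open squares), with the gene mean as a black line and 0 dotted. On the left, *FZR1* sgRNAs lie between 3.29 and 5.37, *CDC20* sgRNAs scatter from −1.80 to 2.00 and *FBXO5* sgRNAs from −0.37 to 0.64. On the right, *CDC20* has the lowest mean, −2.07, and *FBXO5* sgRNA 4 lies at 0.06 in both screens.

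Across the 6 log2 ratios to T0 (3 sorted populations in 2 screens), the patterns of the 3 genes were compared with each other and with all other genes. The Euclidean distance was 5.21 between *FZR1* and *CDC20*, 4.38 between *FZR1* and *FBXO5* and 4.21 between *CDC20* and *FBXO5*. Among 18637 other genes, the nearest to *FZR1* were the chaperone *HSPA8* (1.40), the nonsense-mediated decay endonuclease *SMG6* (1.47), the messenger RNA capping enzyme *RNGTT* (1.63), the Mediator subunit *MED8* (1.64) and the chromatin remodeler *CHD4* (1.67), at a median distance of 5.12 over all genes. Nearest to *CDC20* were the coatomer subunit *COPZ1* (0.87), the ribosomal protein gene *RPS12* (0.93), the dynein heavy chain *DYNC1H1* (0.96), the centromere protein gene *CENPI* (0.99) and the APC/C subunit *ANAPC4* (1.19), at a median of 5.63. Over the 6 values, *ANAPC4* correlated with *CDC20* at 0.437, and the others at 0.699 to 0.809. The *CDC20* values in medium, −2.95 and −2.64, take in sgRNA 4 with no read there, and distances without it were not computed. Nearest to *FBXO5* were *NACA* (0.18), which encodes a nascent polypeptide chaperone subunit, *WBP1* (0.22), the ribosome assembly factor *NOC4L* (0.24), *DNTTIP2* (0.24) and the G1 kinase *CDK4* (0.25), at a median of 1.60. The 6 values share T0 libraries within a screen, so distances describe likeness and are not tested.

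Other genes of the pathway were read from 4 lists, which were written with the results for *FZR1* known. In high minus low, limma called 979 genes higher, or 5.25% of all, and 508 lower, or 2.73%, at a median log2 of −0.01, and 1243 higher and 278 lower once values were centred on the sgRNAs without a target. Of 17 genes for core APC/C subunits and their ubiquitin-conjugating enzymes, 7 were higher and the other 10 did not pass, at a median of 0.18. The largest were *ANAPC10*, a subunit that helps to bind substrates (1.68, adjusted p = 1.43e-06), the scaffold subunits *CDC16* (1.60, adjusted p = 4.12e-05) and *CDC23* (0.87, adjusted p = 0.000222), and the catalytic cullin subunit *ANAPC2* (1.05, adjusted p = 4.31e-05, all limma). None of these reached the 4.15 of *FZR1*, and the difference was not tested. *CDC16* had few reads, a mean of 39.5 per sgRNA over the libraries, with 2.02 and 1.19 in the screens. In the rebuilt pool 12 of the 17 were lower than T0, at a median of −0.68 against 0.04 for all genes. *ANAPC2* had −2.54, *CDC16* −2.04, *CDC23* −1.94 and *ANAPC10* −1.40, where *CDC20* had −2.07 and *FZR1* −0.41.

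The mitotic checkpoint restrains CDC20, and the list of its 11 genes also holds *TRIP13* and *MAD2L1BP*, whose products take its inhibitory complex apart. Of the 11, 4 were higher in high minus low and the other 7 did not pass, at a median of 0.27. Among them, *BUB3* (1.09, adjusted p = 3.84e-05), *MAD2L1* (0.95, adjusted p = 0.00304) and *BUB1B* (0.45, adjusted p = 0.0369, all limma) encode parts of the inhibitor that binds CDC20. The other was the checkpoint kinase *TTK* (0.63, adjusted p = 0.00238, limma). In the rebuilt pool 6 of the 11 were lower, at a median of −0.58.

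Of 28 genes for APC/C substrates, 5 were higher and 2 lower in high minus low, at a median of 0.10. Cyclin A2, encoded by *CCNA2* (1.16, adjusted p = 2.03e-05), the ribonucleotide reductase subunit *RRM2* (1.01, adjusted p = 0.000345) and the mitotic kinase *PLK1* (0.87, adjusted p = 0.000244) were higher, whereas the mitotic kinase *AURKA* was lower (−0.66, adjusted p = 0.00325, all limma). Depth was low for *RRM2* and *PLK1*, with means of 39.5 and 48.9 reads per sgRNA over the libraries. After centring on the sgRNAs without a target the list had 6 higher and 1 lower. In the rebuilt pool 14 of the 28 were lower, at a median of −0.30.

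Of 17 regulators of FZR1 and EMI1, 7 were higher and the other 10 did not pass, at a median of 0.36. The SCF ligase that destroys EMI1 contributed *CUL1* (2.77, adjusted p = 1.46e-07) and *SKP1* (1.18, adjusted p = 2.73e-05, both limma), both shared by many SCF ligases. Of other list genes for that ligase, *FBXW11* was higher (0.47, adjusted p = 0.024, limma), while *RBX1* (0.38) and *BTRC* (−0.02) did not pass. The kinases that phosphorylate FZR1 contributed *CDK2* (1.13, adjusted p = 0.000217) and *CDK1* (0.63, adjusted p = 0.00269, both limma). In the rebuilt pool 6 of the 17 were lower and 1 was higher, at a median of −0.03. The values were −2.98 for *CDK1*, −1.17 for *SKP1*, −0.68 for *CUL1* and −0.43 for *CDK2*. After centring, 9 of the 17 were higher in high minus low, where the median of all genes moved by 0.11, and 8 were lower in the pool.

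**Figure D4:**
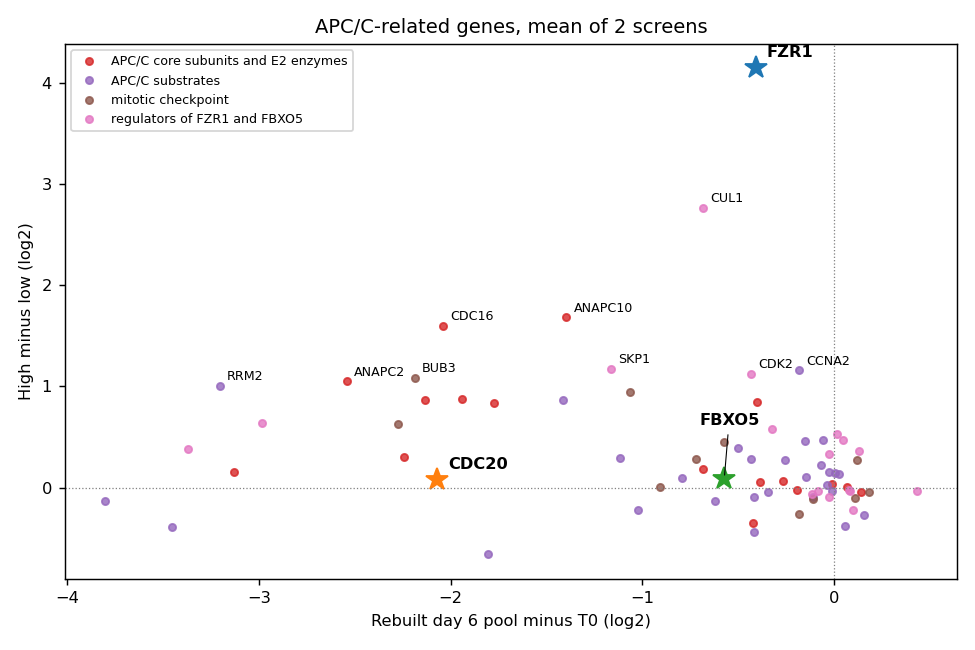
Mean log2 difference over 2 screens between high and low (vertical axis) against that between the rebuilt day 6 pool and T0 (horizontal axis), for *FZR1*, *CDC20* and *FBXO5* (stars) and the genes of the 4 lists (points, colored by list), with genes above 1 between high and low named. *FZR1* stands at 4.15 with a pool difference of −0.41, the next highest is *CUL1* at 2.77, and *CDC20* lies near 0.08 with a pool difference of −2.07.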

How the data were processed

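The authors amplified the sgRNA cassettes from genomic DNA and, per the labels and methods, counted reads with MAGeCK. The deposited values are raw counts, a column for each lane. Within a library the 4 lanes agreed within about sampling noise (a chi-square of 1.02 to 1.03 per degree of freedom, where the screens gave 5.76 to 7.34), so lanes were summed to 8 libraries. A further 4 columns were not used. Genes were named through GENCODE release v44 on GRCh38 (18585 of 18638 identifiers).

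The 3 genes, the pathway lists, the tests and the alternatives were chosen with earlier results of these data known. Library totals were equalized to their mean and 1 read was added before log2. Differences were taken within a screen, averaged over sgRNAs and tested against 0 by limma 3.58.1 (R 4.3.3), adjusted by Benjamini-Hochberg for 18659 entries (21 of them controls) at a threshold of 0.05. This follows the steps the study's methods name up to the threshold. The later removal of core-essential genes was not applied. The asymmetry was planned as a test for the 3 genes and is given as a description, because it uses the libraries by which they were chosen. The rebuilt pool takes in these libraries too, together with T0, and its tests carry that limit. The scaling and the added read are not given in the sources used here. For single sgRNAs, edgeR 4.0.16 fitted the counts of all 8 libraries (quasi-likelihood test, screen as a block). The named genes are the 3 chosen ones, up to 4 genes of each list with the largest absolute difference between high and low among those called, and the 5 genes nearest to each chosen gene in Euclidean distance. *FBXW11*, *RBX1* and *BTRC* were named in addition to these. The tests were tested on simulated data. DESeq2 1.42.0 gave alternatives, together with other pseudocounts, filters, scalings and each library left out. Screens were paired by replicate number, as the methods take fold changes within a replicate. Deviations of same-numbered sorted libraries from the population means correlated at 0.123 to 0.161, and those of sorted and T0 libraries at 0.067 to 0.086. Figures were drawn with Python 3.11.15. Exact Clopper-Pearson 95% intervals of the share of high among high plus low reads were turned into ratios by the library totals. The sgRNA sequences are not reported here.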

Additional observations from a re-analysis of the deposited data

How the results depend on the processing

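The falls of *FZR1* and *CDC20* since T0 kept direction and call under all alternatives run, and that of *FBXO5* under all but 1 (−0.68 to −0.49 with each library left out, −0.49 without the T0 library of replicate 3). The fits with a library left out, and those by edgeR, DESeq2 and limma on libraries, took the pool as a weighted mean of log2 values. For *FZR1* that mean includes its depleted low library, by which the gene was chosen. With each library left out it was −1.16 to −0.91, so these fits do not bear on the −0.41 of the rebuilt pool. The rebuilt pool itself gave −0.59 for *FZR1* with centring and −0.39 with the median over sgRNAs. In the blocked fits of 8 libraries with the replicate block, the pool, as a weighted mean of log2 values, gave −1.03, −2.35 and −0.59 for *FZR1*, *CDC20* and *FBXO5*, and the same without it, and neither fit changed a call of the 3 genes since T0. Leaving the replicate block out of the sgRNA test left 0 of the 12 sgRNAs called for asymmetry by edgeR, against 1; with each library left out it was 0 to 1, and for medium minus T0 3 to 8 (3 without the T0 library of replicate 2 and 4 without that of replicate 3, 5 without either medium library). The asymmetry of *FZR1*, a description here, was −1.06 with a pseudocount of 5, −1.22 with sgRNAs of at least 50 reads or with DESeq2's size factors, −1.14 with centring on sgRNAs without a target, −1.30 with the median over sgRNAs, −1.23 with edgeR and −1.24 with DESeq2 on summed reads, and −1.44 to −0.997 with each library left out. That of *CDC20* was 1.81 with centring, 0.94 with a pseudocount of 5, 0.80 with the median and 1.27 to 2.28 with each library left out. The cause was not tested.

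Of untested values, low minus medium of *FZR1* was −2.50 with a pseudocount of 5, −2.70 with centring, −2.78 with the median, −2.77 with edgeR and −2.77 with DESeq2, and −2.81 to −2.56 with each library left out. For *CDC20* it was 0.42 with a pseudocount of 5, 0.52 with the median, 0.24 with edgeR, 0.23 with DESeq2, 0.14 with sgRNAs of at least 50 reads or without sgRNA 4, and 0.59 to 1.11 with each library left out. High minus medium of *CDC20* was 0.21 with sgRNAs of at least 50 reads or without sgRNA 4, 0.32 with edgeR and 0.33 with DESeq2. High minus low of *FBXO5* was 0.20 with centring, −0.0073 with edgeR, −0.0049 with DESeq2, and 0.037 to 0.138 with each library left out. That of *CDC20* ranged from −0.43 to 0.58 with each library left out, and that of *FZR1* from 4.02 to 4.27.

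Genes called for asymmetry numbered 7, against 82 with a pseudocount of 5, 100 with at least 50 reads, 149 with centring, 241 with the median, 195 with edgeR, 187 with DESeq2, 27 and 6 in the fits of 8 libraries with and without the replicate block, and 4 to 23 with each library left out. Genes called since T0 numbered 2029, against 5510 with centring and 985 to 1504 with each library left out (1062 and 985 without the T0 library of replicates 2 and 3). Genes called in high minus low numbered 1487, against 862 to 1356 with each library left out (862 and 934 without the high and low library of replicate 2, 932 and 877 without those of replicate 3). The 2029 and 1487 rest on differences within a screen, whereas the fits with a library left out were limma on the other 7 libraries. In the fits of 8 libraries with and without the replicate block, high minus low had 1335 and 1204 genes called. Since T0 they called 1550 and 1446, with the pool as a weighted mean of log2 values. A gap to 2029 or 1487 thus takes in the change of fit as well as the missing library. Depth limits *FZR1* in low, with 110 and 106 raw reads over 4 sgRNAs, and *CDC20* in all sorted libraries, with 130 to 211.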
